A study of Bos taurus with 20 samples.

Results

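Insulin signalling and the choice between glucose and fat as fuel were followed in cattle muscle through 7 genes: SLC2A4, INSR, IRS1, AKT2, HK2, PDK4 and PIK3R1. Their members on the array were all probe sets that the platform annotation gives to exactly 1 of these symbols, and 13 of 24016 probe sets qualified. INSR (gene ID 408017) had 5, AKT2 (534923) and PDK4 (507367) had 3 each, and SLC2A4 (282359) and PIK3R1 (282307) had 1 each. IRS1, an adaptor of the insulin receptor, and HK2, the hexokinase typical of insulin-sensitive muscle, matched 0 probe sets and are not analysed here. The array measured total RNA of Musculus longissimus dorsi, the long back muscle, from 20 bulls of the F2 generation of a Holstein by Charolais cross, 1 array per animal. The comparison the study set up is between 2 groups of 10 bulls, 1 with high and 1 with low fat inside the muscle (intramuscular fat, IMF). The titles carry animal numbers with an S in 10 bulls and without it in the other 10. What this S means is not stated in the labels, and 5 high and 5 low IMF bulls fall on each side. These sides are called the title series here.

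Insulin binds the receptor INSR, which phosphorylates adaptor proteins that recruit phosphoinositide 3-kinase, held by its regulatory subunit PIK3R1, and the lipid that this kinase makes switches on AKT2. In muscle AKT2 releases vesicles that carry SLC2A4, the glucose transporter GLUT4, to the cell surface, where glucose enters and is trapped by hexokinase. PDK4 sits at the far end of the route, where it inactivates the pyruvate dehydrogenase complex, and it is known for rising in muscle during fasting, when fat replaces glucose as fuel.

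The values are linear intensities per probe set and were compared as log2(intensity + 1). A probe set with a mean among the lowest 40% was not tested, which left 14409 probe sets and 9 of the 13 members: 3 of PDK4, 2 each of INSR and AKT2, and 1 each of SLC2A4 and PIK3R1. A call means an adjusted p under 0.05 in limma with Benjamini-Hochberg adjustment over all tested probe sets. Each member, and each gene of the lists below, is represented by its brightest probe set unless another is named. The 4 probe sets left out were 3 of INSR, with median intensities of 28.04 to 43.9 over all bulls, and 1 of AKT2 with 18.9. Intensities of different probe sets are not comparable as levels of RNA.

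Array medians lay between intensities of 51.6 and 67.7. The 12 measured skeletal muscle markers summed to intensities between 163900 and 189000 in every bull. Albumin, a liver transcript, exceeded 2000 on 4 arrays, namely those of high IMF replicates 6, 8 and 10, all S-titled, and of low IMF replicate 3, which is not. The members' IMF differences are therefore also given without these 4 arrays. So are their series differences except that of INSR, and their interactions, for INSR on Bt.28461.1.A1_at only.

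Between high and low IMF muscle 0 of the 9 tested member probe sets were called. The differences of the 5 genes lay between -0.26 and 0.10 log2 units. Across all 14409 probe sets the same fit called 0 (0%), with 237 probe sets below an unadjusted p of 0.05. A fit with title series as covariate also called 0 (0%), with 1050 below that unadjusted p. The groups of 10 bulls overlapped in all 9 member probe sets, and 0% of all tested probe sets had groups that did not overlap.

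INSR is the receptor that insulin binds. On Bt.28461.2.S1_a_at the lowest, median and highest intensities were 20.6, 61.3 and 110.4 in high IMF, against 25.1, 69.0 and 87.0 in low IMF. The high IMF bulls spread further on both sides than the low IMF bulls. The difference was -0.26 (SE 0.30, 95% interval -0.88 to 0.36, limma adjusted p = 0.9997). The second tested INSR probe set, Bt.28461.1.A1_at, had 42.2, 56.7 and 73.0 in high IMF and 39.0, 54.4 and 85.6 in low IMF. Here the difference was 0.01 (SE 0.14).

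PIK3R1, the regulatory subunit of phosphoinositide 3-kinase, was dim, with a mean at the 6th percentile of the tested probe sets. Its lowest, median and highest intensities were 12.7, 40.2 and 109.4 in high IMF and 15.3, 38.9 and 143.2 in low IMF. These ranges overlapped widely, with both ends higher in low IMF. The difference was -0.05 (SE 0.44, 95% interval -0.96 to 0.87).

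AKT2, the AKT kinase tied to glucose uptake in muscle and fat, had 295.6, 427.3 and 655.5 in high IMF and 242.9, 427.3 and 726.1 in low IMF on Bt.5988.1.S1_at. The medians were the same to this precision, and the high IMF bulls lay within the low IMF range. The difference was -0.01 (SE 0.21, 95% interval -0.45 to 0.43). SLC2A4, the transporter itself, had 259.0, 451.0 and 860.1 in high IMF and 254.2, 482.2 and 1005 in low IMF. The difference was -0.07 (SE 0.28, 95% interval -0.64 to 0.51).

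PDK4, the brake on pyruvate oxidation, had 494.4, 4010 and 9437 in high IMF and 601.7, 4160 and 9141 in low IMF on Bt.23505.1.S1_at. The bulls covered a 19.1-fold range in high IMF and a 15.2-fold range in low IMF. The difference was 0.10 (SE 0.54, 95% interval -1.03 to 1.23), and the other PDK4 probe sets gave 0.00 and 0.05.

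With the title series as a covariate the differences stayed as they were and the intervals narrowed. The 95% interval of PDK4 was then -0.58 to 0.78 (SE 0.33), that of PIK3R1 -0.55 to 0.45 (SE 0.24) and that of INSR -0.86 to 0.35 (SE 0.29). For SLC2A4 it was -0.36 to 0.22 (SE 0.14) and for AKT2 -0.20 to 0.17 (SE 0.09). An IMF difference of 1 log2 unit lay outside all 5 of these intervals, while without the covariate it lay inside that of PDK4.

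Within the title series the differences of PDK4 were 0.06 in the S-titled bulls and 0.14 in the others, and those of AKT2 -0.17 and 0.14. SLC2A4 gave -0.24 in the S-titled bulls and 0.11 in the others, PIK3R1 gave -0.14 and 0.05, and INSR gave -0.15 and -0.36. Without the 4 arrays high in albumin and with the title series as a covariate, the IMF differences were 0.12 for SLC2A4, -0.18 for INSR, 0.09 for PIK3R1, -0.02 for AKT2 and -0.10 for PDK4, and again 0 members were called. Of 11 tested adipocyte markers, 9 lay higher in high IMF, with a median difference of 0.73 and 0 called. The 14 measured adipocyte markers summed to 7760 to 34820 in high IMF and 8258 to 20620 in low IMF, and none was at 0 in every bull of a group, although LEP, ADIPOQ and PPARG were too dim to be tested. The part of fat cells in the members' values was not tested. In bulk tissue, fewer cells of a type and less RNA per cell cannot be told apart.

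**Figure D1:**
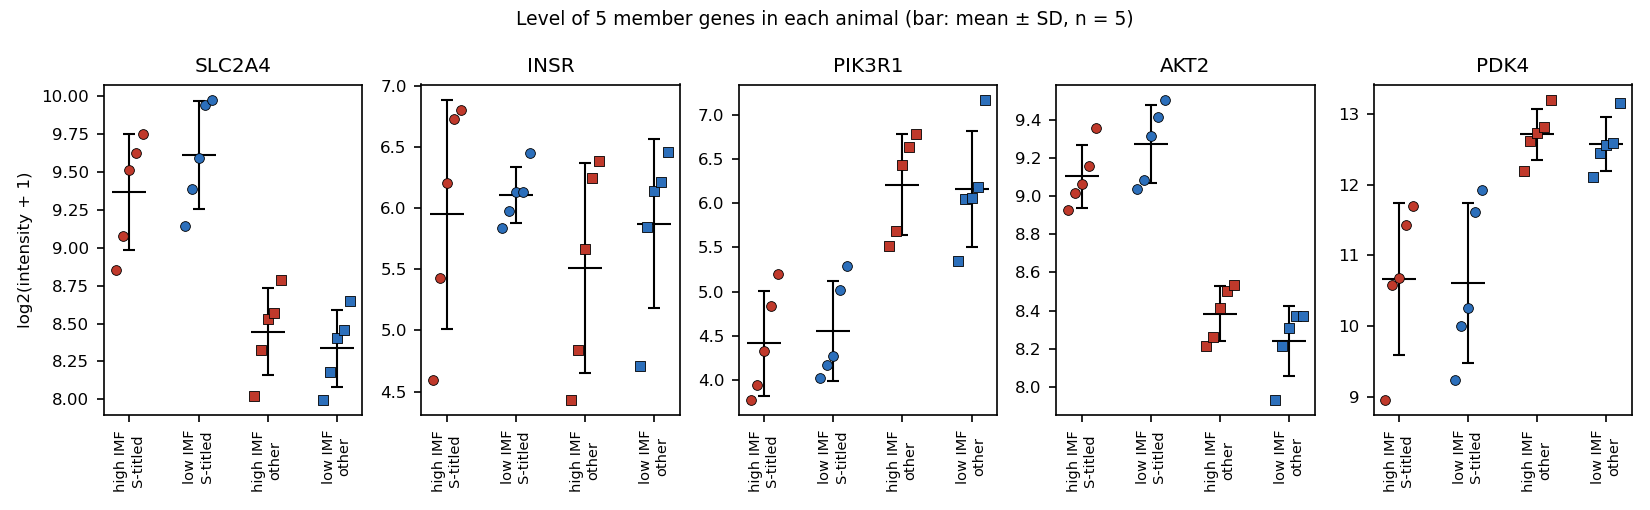
Level of the 5 genes in each bull as log2(intensity + 1), on the brightest probe set of each, with circles for S-titled and squares for other bulls, red for high and blue for low IMF, and a bar for the mean ± SD of 5 bulls. PDK4 and PIK3R1 lie lower and SLC2A4 and AKT2 higher in the S-titled bulls, while high and low IMF overlap throughout.

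Between the title series 4 of the 5 genes differed. In S-titled muscle PDK4 was at 0.249-fold and PIK3R1 at 0.308-fold of the other bulls, while SLC2A4 was 2.13-fold and AKT2 1.84-fold higher. For each of these 4 genes every S-titled bull lay on one side of every other bull. INSR had 1 weak call, on 1 of 2 tested probe sets. The series differed across much of the array, so these values stand against a high background: limma with the IMF group as a covariate called 9858 of 14409 probe sets (68.4%), 4822 of them higher (33.5%) and 5036 lower (35%) in S-titled bulls. Of the 9 member probe sets 8 were called, 3 higher and 5 lower. Groups without overlap were found in 2854 probe sets (19.8%) and in 6 of the 9 member probe sets, which stand for 4 genes because 3 of them are PDK4.

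INSR intensities on Bt.28461.2.S1_a_at were 23.2, 42.0, 72.9, 104.7 and 110.4 in the S-titled high IMF bulls and 56.2, 61.9, 69.0, 69.1 and 86.6 in the S-titled low IMF bulls. The other high IMF bulls had 20.6, 27.6, 49.8, 74.8 and 82.3, and the other low IMF bulls 25.1, 56.6, 69.6, 73.0 and 87.0. The receptor's values thus overlapped between the series at both ends. The difference was 0.34 (SE 0.29, 95% interval -0.27 to 0.94, limma adjusted p = 0.315). On Bt.28461.1.A1_at the S-titled bulls had a lowest, median and highest intensity of 39.0, 49.1 and 73.0, against 50.2, 58.5 and 85.6 in the other bulls. This probe set was called lower in S-titled bulls, by -0.28 (SE 0.12, limma adjusted p = 0.0488), although the series overlapped. The call was lost in 5 of 7 other settings, with adjusted p up to 0.191 under quantile normalization, and in 14 of the 20 fits that left out 1 bull. The 2 tested INSR probe sets therefore pointed in opposite directions, and no direction is given for the gene. Of those too dim to be tested, Bt.28461.1.S1_a_at gave 0.22 (95% interval -0.50 to 0.94) and Bt.28461.1.A1_a_at -0.09 (-0.36 to 0.18). Bt.28461.1.S1_at gave -0.44 (-0.77 to -0.12). Identifiers of the INSR probe sets carry A1 or S1 as a mark of orientation, and whether both kinds read INSR RNA was not tested.

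PIK3R1 was lower in every S-titled bull. Its intensities were 12.7, 14.4, 19.1, 27.5 and 35.6 in S-titled high IMF bulls and 15.3, 17.0, 18.3, 31.3 and 38.2 in S-titled low IMF bulls. The other high IMF bulls had 44.9, 50.3, 85.1, 98.2 and 109.4, and the other low IMF bulls 39.6, 65.1, 65.9, 71.7 and 143.2. The gap between the series was narrow, from 38.2 to 39.6. The difference was -1.70 (SE 0.24, limma adjusted p = 3.34e-06). It was -1.80 among high IMF and -1.61 among low IMF bulls, and with a pseudocount of 16 it was -1.22. No detection calls were used, so whether the S-titled values lie above the background signal is not known.

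AKT2 was higher in every S-titled bull on its brightest probe set, with the tightest values of the 5 genes on such probe sets. On Bt.5988.1.S1_at the intensities were 485.1, 516.8, 534.6, 569.4 and 655.5 in S-titled high IMF and 524.4, 541.4, 635.5, 682.2 and 726.1 in S-titled low IMF bulls. They were 295.6, 305.6, 340.4, 361.1 and 369.5 in the other high IMF and 242.9, 296.5, 316.0, 329.9 and 330.1 in the other low IMF bulls. No bull fell between 369.5 and 485.1. The difference was 0.88 (SE 0.09, limma adjusted p = 4.94e-08), with 0.72 among high IMF and 1.03 among low IMF bulls. The second tested probe set, Bt.6403.1.A1_at, was also called higher in S-titled bulls (0.46, SE 0.14, limma adjusted p = 0.00688), but its groups overlapped, at 39.8 to 85.6 in S-titled and 31.3 to 69.0 in other bulls. The third, Bt.27965.2.S1_a_at, was too dim to be tested and ran from 18.5 to 49.7 in S-titled and from 1.16 to 31.3 in other bulls.

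SLC2A4 was higher in every S-titled bull. Its intensities were 461.2, 539.2, 727.0, 788.7 and 860.1 in S-titled high IMF and 564.9, 668.7, 770.9, 978.8 and 1005 in S-titled low IMF bulls. The other high IMF bulls had 259.0, 320.4, 368.1, 378.7 and 440.9, and the other low IMF bulls 254.2, 289.4, 337.7, 350.9 and 399.6. The highest of the other bulls, at 440.9, came close to the lowest S-titled bull at 461.2. The difference was 1.09 (SE 0.14, limma adjusted p = 1.01e-06), with 0.92 among high IMF and 1.27 among low IMF bulls.

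PDK4 was lower in every S-titled bull and had the largest series difference of the 5 genes. On Bt.23505.1.S1_at the intensities were 494.4, 1526, 1639, 2766 and 3334 in S-titled high IMF and 601.7, 1028, 1217, 3138 and 3884 in S-titled low IMF bulls. The other high IMF bulls had 4687, 6310, 6810, 7188 and 9437, and the other low IMF bulls 4436, 5585, 6065, 6174 and 9141. The S-titled bulls thus differed among themselves by up to 7.84-fold, against 2.13-fold in the other bulls. The difference was -2.01 (SE 0.33, limma adjusted p = 1.87e-05), with -2.04 among high IMF and -1.97 among low IMF bulls. The probe sets Bt.13330.1.S1_at and Bt.13330.2.A1_at gave -2.07 (SE 0.34) and -2.34 (SE 0.35), also without overlap between the series.

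A share of 0.271% of the tested probe sets had a larger series difference than PDK4 in either direction, and 0.819% had a larger one than PIK3R1. For SLC2A4 this share was 8.17% and for AKT2 16.1%, and the median size over all tested probe sets was 0.42. Without the 4 arrays high in albumin the differences were -2.20 for PDK4, -1.56 for PIK3R1, 1.28 for SLC2A4 and 0.86 for AKT2, all still called. Some other measures moved with the series too. The 9 hybridization controls, transcripts added to the sample before hybridization, averaged 9.87 to 10.6 log2 units on the arrays of S-titled bulls and 10.7 to 10.9 on those of the others, without overlap. The log2 ratio of 3′ to 5′ actin probe sets, a sign of RNA integrity, ran from -0.74 to -0.17 in S-titled and from -0.38 to 0.01 in other bulls. Its medians were -0.38 and -0.21. The same ratio for GAPD ran from -0.47 to -0.28 in S-titled and from -0.46 to -0.19 in other bulls. Here the medians lay closer, at -0.39 and -0.35. All 11 tested adipocyte markers were called higher in S-titled bulls, with a median difference of 1.46 and sums of 10440 to 34820 against 7760 to 12750 in the other bulls. Marker calls stand beside 33.5% called higher and 35% called lower over all tested probe sets. Of 6 tested macrophage markers 5 were called higher, and of 12 skeletal muscle markers 4 were called higher and 1 lower. Of 6 endothelial markers 3 were called higher, and of 8 fibroblast markers 3 higher and 2 lower. Of 4 red blood cell markers 2 were called higher, and of 11 liver transcripts 1. The part of these in the members' values was not tested, and whatever else sets the title series apart cannot be told apart from them.

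**Figure D2:**
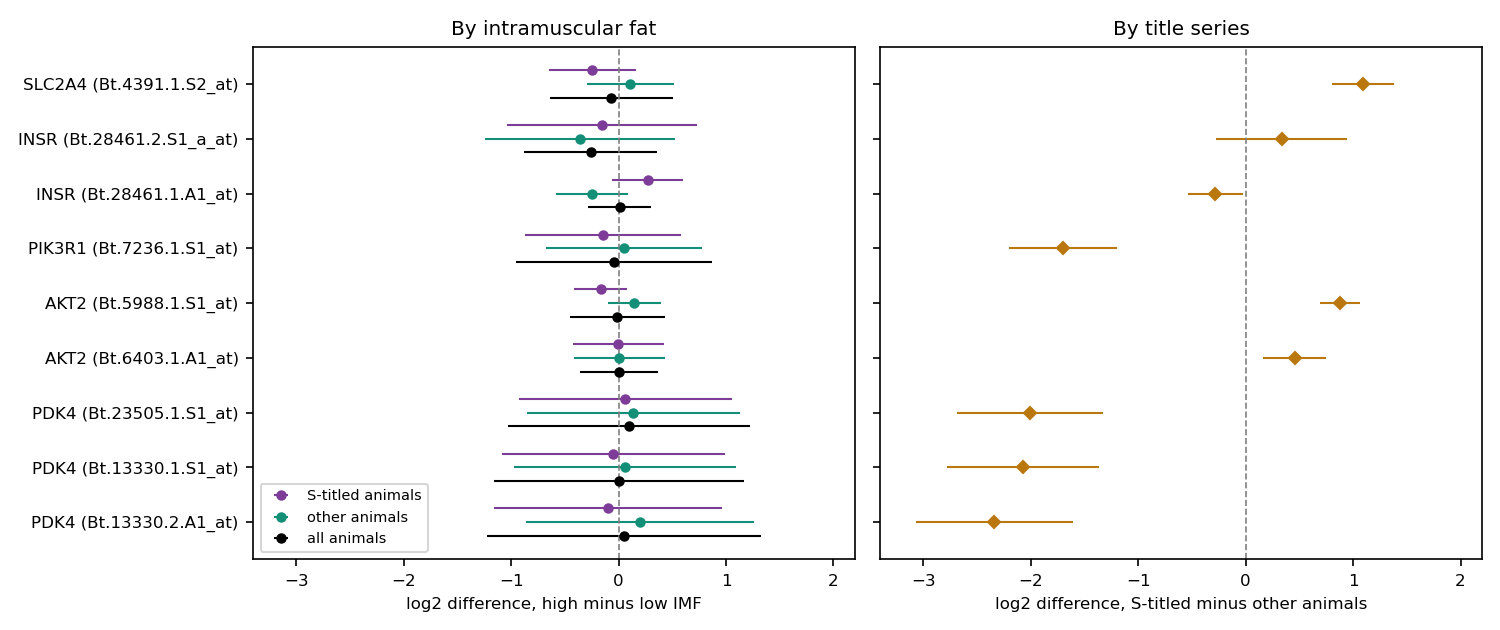
Log2 difference of each tested member probe set with its 95% interval, on the left high minus low IMF in S-titled, other and all bulls, and on the right S-titled minus other bulls. Every interval for IMF spans 0 in all 3 sets of bulls, while the intervals for the title series leave out 0 in 8 of 9 probe sets.

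Whether the IMF difference itself depended on the title series was tested by the interaction, which was called in 0 of 9 member probe sets and in 0 of all (0%). At an unadjusted p under 0.05 it held 788 probe sets (5.47%) and 1 member probe set, INSR Bt.28461.1.A1_at. On it the S-titled bulls had 42.2, 49.0, 49.2, 70.5 and 73.0 in high IMF and 39.0, 39.1, 45.0, 50.6 and 58.2 in low IMF. The other bulls had 51.8, 55.5, 57.9, 58.1 and 58.9 in high IMF and 50.2, 63.0, 68.8, 72.8 and 85.6 in low IMF. High IMF lay higher on the S-titled side and lower on the other side, with overlap on both. The IMF difference was 0.27 in S-titled and -0.25 in other bulls, and they differed by 0.52 (SE 0.22, unadjusted p = 0.0328, limma adjusted p = 0.862). For AKT2 the IMF differences of -0.17 and 0.14 differed by -0.31 (SE 0.17, limma adjusted p = 0.862). For SLC2A4 the interaction was -0.35 (95% interval -0.93 to 0.22), for PIK3R1 -0.19 (-1.21 to 0.84) and for PDK4 -0.08 (-1.48 to 1.33). Without the 4 arrays high in albumin the interaction was -0.06 for SLC2A4, -0.42 for AKT2, 0.19 for PIK3R1, -0.30 for PDK4 and 0.73 for INSR Bt.28461.1.A1_at, with 0 called. Among S-titled high IMF bulls these values rest on replicates 7 and 9 alone, because replicates 6, 8 and 10 were left out.

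The members differed strongly in how much they varied between bulls. The SD of PDK4 over all 20 bulls was 1.28 log2 units, larger than in 99.3% of the tested probe sets, and that of PIK3R1 was 1.03, larger than in 98.4%. SLC2A4 had an SD of 0.64 and AKT2 of 0.48, where the median probe set had 0.36. Most of this variance lay between the title series, with 86.2% for AKT2, 76.3% for SLC2A4, 71.5% for PIK3R1 and 64.9% for PDK4, but 5.93% for INSR. Within the series the brightest AKT2 probe set was among the steadier ones, with an SD of 0.185 at the 21.2th percentile. The second, Bt.6403.1.A1_at, was not, with 0.32 at the 69.7th percentile and 36.2% of its variance between the series. PDK4 stayed among the most variable, with 0.78 at the 98.4th percentile, and INSR with 0.70 reached the 97.7th on its brightest probe set. The PDK4 value pools an SD of 1.04 in S-titled and 0.36 in other bulls. Its limma intervals also use a spread shared by both series. On Bt.28461.1.A1_at INSR had 0.28 at the 57.7th percentile, with 22.3% of the variance between the series.

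Genes with several probe sets allowed these to be set against each other. After the series mean was subtracted, the 3 PDK4 probe sets followed each other across the 20 bulls with Pearson r of 0.939, 0.962 and 0.979. In the S-titled high IMF bulls Bt.13330.2.A1_at had 87.2, 380.8, 405.9, 656.8 and 1149, and in the S-titled low IMF bulls 159.2, 329.7, 391.0, 740.9 and 950.5. In the other bulls it had 1666, 1925, 2192, 2604 and 3144 in high IMF and 1679, 1713, 1856, 2174 and 2466 in low IMF. The lowest bull of each S-titled group was the same on all 3 probe sets. INSR was different: Bt.28461.2.S1_a_at followed Bt.28461.1.S1_a_at with r of 0.942, but the remaining 9 of its 10 pairs lay between -0.409 and 0.369. For AKT2 the 3 pairs gave 0.204, 0.181 and -0.218, far from the agreement of the PDK4 probe sets. These r values are descriptions without a test, since probe sets of 1 array share its scaling.

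**Figure D3:**
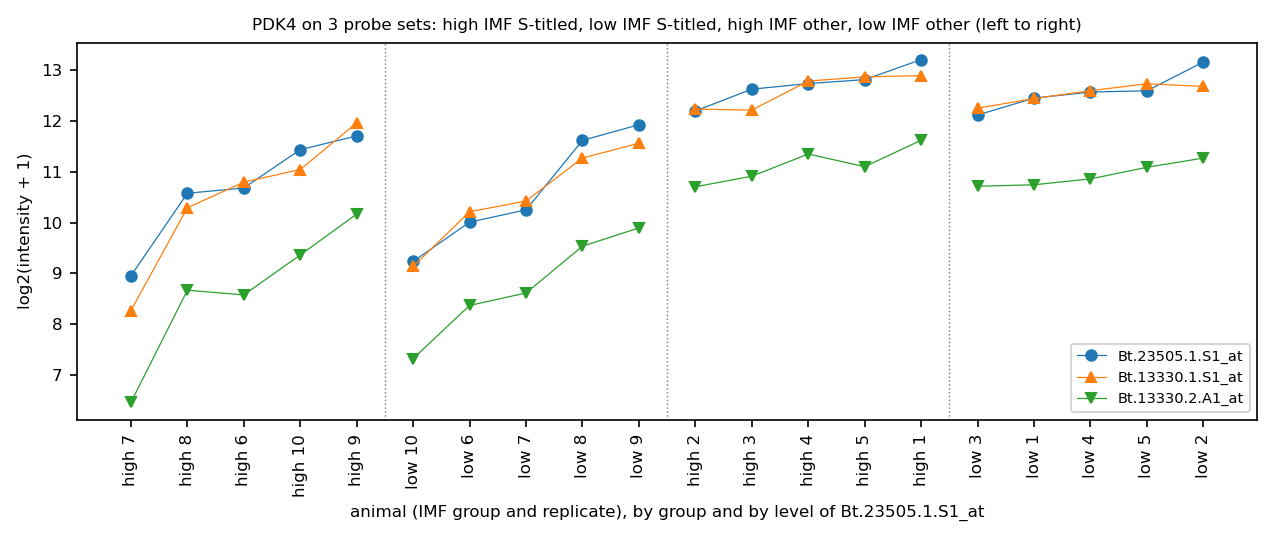
PDK4 as log2(intensity + 1) in each bull on its 3 probe sets, with bulls ordered in each group by Bt.23505.1.S1_at and dotted lines between the 4 groups. All 3 probe sets lie lower in the S-titled bulls and spread more there than in the other bulls.

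Other genes of the route were taken from 7 lists, each gene on its brightest probe set, and 0 of them were called between high and low IMF. The list medians of the IMF difference lay between -0.09 and 0.04, beside -0.03 over all tested probe sets. Between the title series the lists held calls in both directions. Their counts are to be read against the 68.4% of all tested probe sets called between the series, 33.5% higher and 35% lower.

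From the insulin receptor to AKT, 6 of 15 listed genes were tested. In S-titled bulls 4 were called higher and 2 lower, so all 6 were called, where 68.4% of all tested probe sets were, with a median series difference of 0.45 beside 0.00 over all tested probe sets. PIK3R2, an alternative regulatory subunit of phosphoinositide 3-kinase, was higher by 0.86 (SE 0.10), opposite to PIK3R1, with median intensities of 192.9 in S-titled and 102.3 in other bulls. PIK3CA, a catalytic subunit of the same kinase, was lower by -1.56 (SE 0.25), at 28.2 in S-titled and 75.3 in other bulls. Its probe set was about as dim as that of PIK3R1, with mean intensities of 51.3 and 50.1. Whether its S-titled values lie above the background signal is not known either. AKT1, the broadly expressed AKT kinase, was higher by 0.54 (SE 0.08), and SHC1, an adaptor of the receptor, by 0.62 (SE 0.09). Between high and low IMF the smallest p belonged to PIK3CA, at -0.54 (SE 0.42), and SHC1, at 0.17 (SE 0.17).

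Among the brakes on insulin signalling 6 of 15 genes were tested, with 1 called higher and 2 lower in S-titled bulls and a median of -0.14. INPP5K, a phosphatase of phosphoinositides, was higher by 0.44 (SE 0.10). PPP2CA, a catalytic subunit of protein phosphatase 2A, was lower by -0.73 (SE 0.11), and ENPP1, a membrane protein that inhibits the receptor, by -0.74 (SE 0.19). GRB10, an adaptor that dampens the receptor, gave -0.15 and was not called. For IMF the differences of GRB10 and ENPP1 were -0.18 and -0.28.

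Of the AKT targets and effectors 10 of 14 genes were tested, 6 called higher and 3 lower in S-titled bulls, with a median of 0.29. EIF4EBP1, a repressor of translation under the kinase mTOR, was higher by 1.38 (SE 0.16), with median intensities of 406.5 in S-titled and 155.5 in other bulls. AKT1S1, an AKT substrate bound to mTOR, was higher by 1.005 (SE 0.11). RPS6KB1, the S6 kinase, was lower by -1.24 (SE 0.16). TBC1D4, the AKT2 substrate that holds SLC2A4 vesicles back until it is phosphorylated, was called lower by -0.36 (SE 0.09) and was named after its values were seen. GSK3B, a kinase that inhibits glycogen synthase, had 3 probe sets that disagreed, at 0.25, -0.58 and -0.50, and no direction is given for it. For IMF the 3 probe sets of GSK3B disagreed too, at 0.19, -0.11 and -0.13, and RPS6KB1 gave -0.30.

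For GLUT4 vesicles and glucose carriers, the surroundings of SLC2A4, 9 of 18 listed symbols were tested. In S-titled bulls 4 were called higher and 3 lower, with a median of 0.27. VAMP2, the vesicle protein that drives fusion with the membrane, was higher by 1.24 (SE 0.11), and ASPSCR1, which tethers the vesicles inside the cell, by 0.82 (SE 0.06). The VAMP2 probe set was dim, with a mean intensity of 57.6. STXBP3, a partner of the membrane syntaxin, was lower by -0.99 (SE 0.21). MEF2A, a transcription factor known to act on the SLC2A4 gene, was lower by -1.12 (SE 0.12) where SLC2A4 was higher, with median intensities of 501.3 in S-titled and 1099 in other bulls. STXBP3 and MEF2A also had the smallest p for IMF, with -0.42 (SE 0.30) and -0.32 (SE 0.27).

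The first steps of glucose use and glycogen synthesis, the surroundings of HK2, held 10 tested genes of 15, 3 called higher and 3 lower in S-titled bulls, with a median of -0.01. UGP2, which makes the glucose donor of glycogen, was lower by -0.91 (SE 0.10), and GBE1, the glycogen branching enzyme, by -0.70 (SE 0.11). HK1, the other hexokinase on the list, was called higher by 0.39 (SE 0.11). For IMF PFKFB1, which sets the level of an activator of glycolysis, gave 0.15 and GBE1 -0.21.

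PDK4 acts on the pyruvate dehydrogenase complex, and of 13 tested genes of 16 in that list 1 was called higher and 7 lower in S-titled bulls, with a median of -0.25. These 8 of 13 are no larger a share than the 68.4% called over all tested probe sets. By direction, the 7 lower and 1 higher stand beside 35% of all tested probe sets called lower and 33.5% called higher. All 5 tested subunits of the complex were lower: PDHA1 by -0.76, PDHB by -0.60, DLAT by -0.98, DLD by -1.11 and PDHX by -0.60. PDP1, the phosphatase that reverses the action of PDK4, was lower by -1.04 (SE 0.12), in the direction of PDK4. PDK2, another kinase of the complex, was higher by 0.78 (SE 0.07), opposite to PDK4, with median intensities of 609.2 in S-titled and 340.8 in other bulls. LDHA, a lactate dehydrogenase, was lower by -0.25. For IMF MPC1, part of the mitochondrial pyruvate carrier, gave -0.12 and PDHA1 -0.15. The subunits, PDP1, LDHA and HK1 were named after their values were seen, except PDHA1 and DLAT.

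Genes of fasting and of fatty acid use that are known to go with PDK4 were split between the directions, 5 called higher and 6 lower in S-titled bulls of 14 tested and 21 listed, with a median of 0.05, beside 68.4% called over all tested probe sets. CD36, a fatty acid carrier of the membrane, was lower by -1.20 (SE 0.13) and ACADM, an enzyme of fatty acid oxidation, by -0.90 (SE 0.11). PPARGC1A, a coactivator of mitochondrial genes, was lower by -1.16 (SE 0.22). CEBPD, a transcription factor, was higher by 0.69 (SE 0.18). For IMF CEBPD and PPARGC1A had the smallest p, with -0.37 (SE 0.24) and -0.43 (SE 0.34). For PPARGC1A this was -0.87 in S-titled and 0.01 in other bulls.

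**Figure D4:**
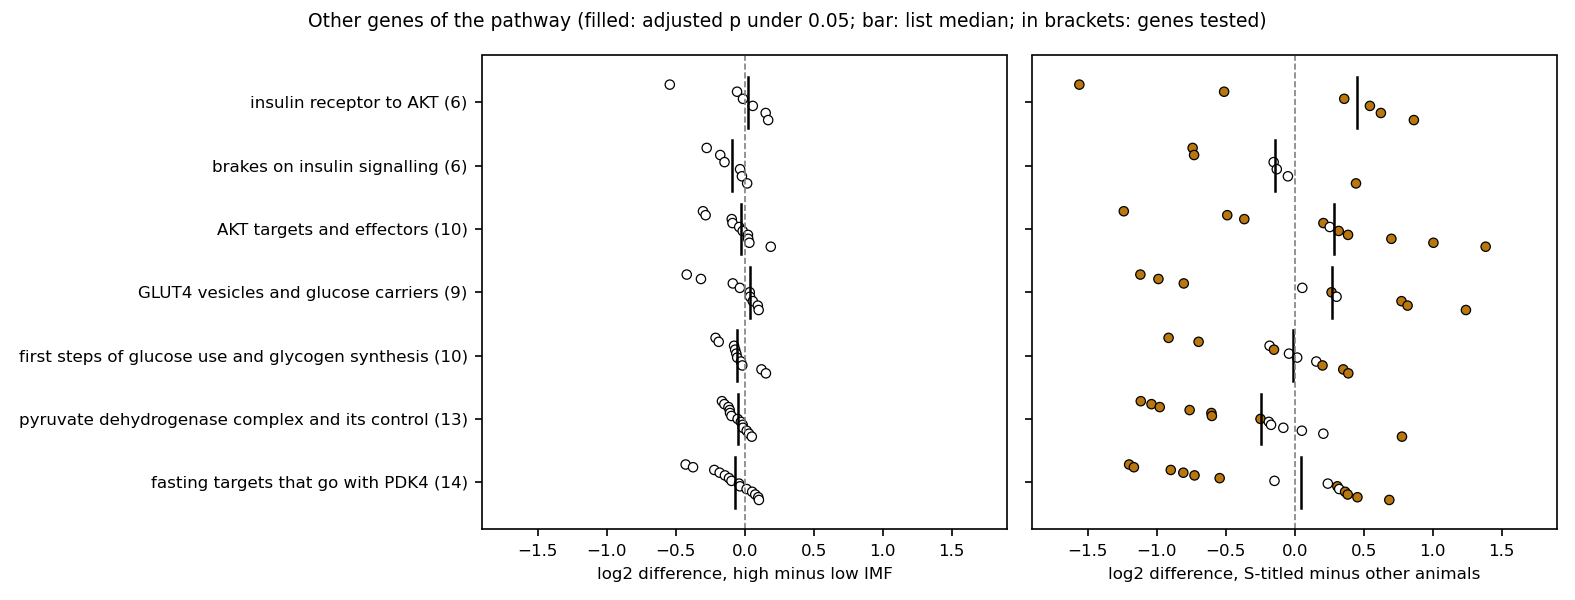
Log2 difference of each tested gene in the 7 lists, high minus low IMF on the left and S-titled minus other bulls on the right, with filled points for calls, a bar for the list median and the number of genes tested in brackets. No point is filled for IMF, and of 13 genes of the pyruvate dehydrogenase list 7 are called lower in S-titled bulls.

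Whether the members varied together between bulls of 1 title series was tested next, and 0 of 10 pairs passed. For the pairs of the 5 genes, Pearson and Spearman correlations were computed over 20 bulls after the series mean was subtracted, with permutation p from 100000 resamples within the series. AKT2 and PDK4 gave the largest r, 0.58 (permutation p = 0.0112, adjusted p = 0.112 over the 10 pairs), with rho of 0.56 (permutation p = 0.0224, adjusted p = 0.224). It was 0.66 in the S-titled and 0.52 in the other bulls, and 0.59 without the 2 bulls farthest from the median of AKT2. The pair did not pass in this form, but did with arrays centred on their medians (r = 0.67, adjusted p = 0.0129). PIK3R1 and PDK4 gave r of -0.40 (permutation p = 0.0828, adjusted p = 0.414, rho -0.45), with -0.63 in S-titled and 0.04 in other bulls. SLC2A4 and PIK3R1 gave -0.29 (adjusted p = 0.570), with -0.01 in S-titled and -0.69 in other bulls and -0.74 without the 4 arrays high in albumin (adjusted p = 0.0213). Without the 2 bulls farthest from the median of SLC2A4 the r of this pair was -0.68. The remaining 7 pairs lay between -0.16 and 0.30.

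The genes most like each member were taken as the 2 with the highest r over the 20 bulls, after the series mean was subtracted, among 8957 probe sets with 1 other symbol. They were chosen for their r and have no test. The r is that of 1 probe set, which for CD99, MARCHF6, ITGAV, ASL and PDE1B is not the brightest of the gene. The member's side is its brightest probe set. For INSR and AKT2 that one did not follow the other tested probe set, with r of -0.222 and 0.204. Their matches are therefore those of 1 probe set. AKT2 had the closest match, FOXO4, itself a transcription factor that AKT kinases inhibit and a gene of the list of AKT targets, with r of 0.89, 0.90 in S-titled and 0.87 in other bulls. Next came MSRA, which repairs oxidized methionine, with 0.80. SLC2A4 was closest to PTP4A3, a phosphatase, at 0.71 and TUBB4A, a tubulin, at 0.68. INSR was closest to ASRGL1, an asparaginase, at 0.78 and CD99, a surface protein, at 0.75. PIK3R1 was closest to MARCHF6, a ubiquitin ligase, at 0.70 and ITGAV, an integrin subunit, at 0.68. PDK4 was closest to ASL, an enzyme of arginine synthesis, at 0.66 and PDE1B, a phosphodiesterase, at 0.66. For these 2 genes r was 0.78 and 0.76 in the S-titled bulls, against 0.18 and 0.16 in the other bulls, a difference that was not tested.

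**Figure D5:**
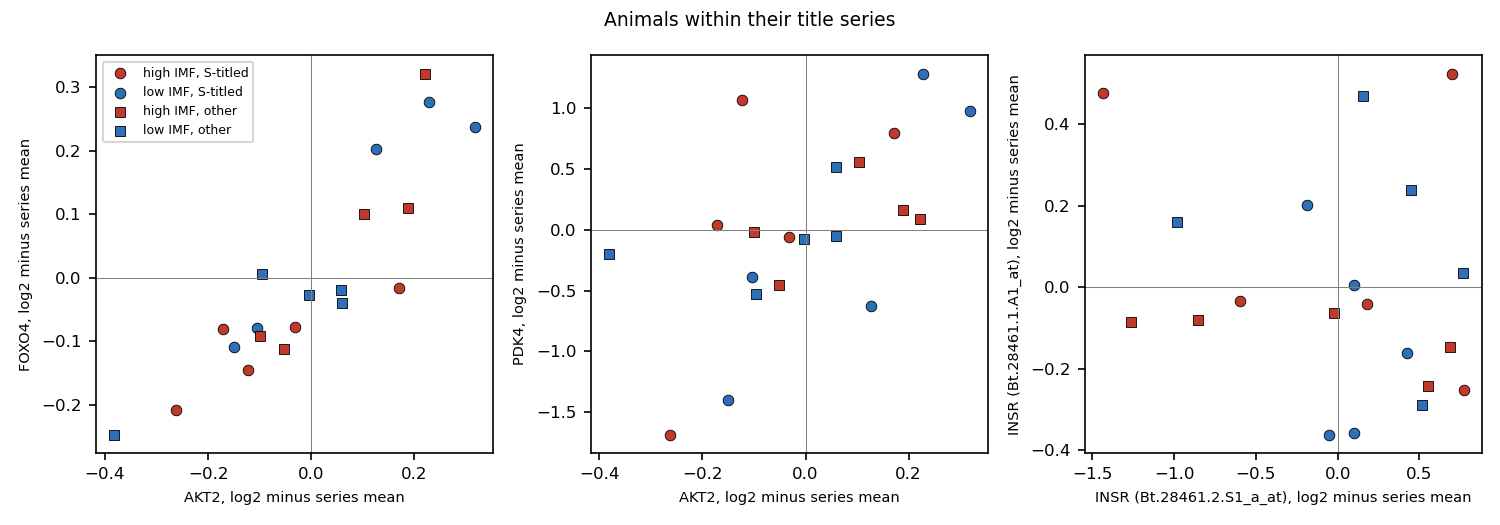
Each bull's log2 value minus the mean of its title series, with circles for S-titled and squares for other bulls and red for high and blue for low IMF. FOXO4 follows the brightest AKT2 probe set closely, PDK4 follows it loosely, and the tested INSR probe sets do not follow each other.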

How the data were processed

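The authors deposited linear intensities for 24128 probe sets on 20 arrays. The submitters' processing notes name GCOS 1.1.1 and Affymetrix Expression Console 1.1, and no source used here gives the method that summarised probes. The deposited scaling between arrays was kept, 112 array controls were removed, and values were taken as log2(intensity + 1), which understates differences of dim probe sets. The 40% of probe sets with the lowest mean were left out. Differences were tested by the moderated two-sided test of limma 3.58.1, under R 4.3.3, without a covariate for IMF, with the IMF group as a covariate for the title series, and with 4 group means for the values within a series and the interaction. Intervals are limma's, at 95%. The series text names a paired t-test, but the labels pair no animals. A gene was named from a probe set only where the platform annotation gives 1 symbol, and gene IDs come from NCBI RefSeq's cattle table. From each list the 2 genes with the smallest p for each comparison were named. The members and lists were chosen with earlier results of these data known. The code was tested on simulated data. No sequences or genome coordinates were used. Precision is limited by the number of arrays. Alternatives were the pseudocount, the filter, quantile normalization, centring, the title series as a covariate, the fit without 4 arrays high in albumin, and leaving out each bull; named list genes and within-series counts under these settings were added after seeing the data.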

Additional observations from a re-analysis of the deposited data

Results flagged for a closer look

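Of 78 groups of 5 or 10 bulls checked over the 13 member probe sets, 3 had a bull set far from the others, where a nominal 1 in 20 gives 3.9. The groups of 10 pool both title series and contain the groups of 5, so this rate is only a rough guide. All 3 flagged groups were on INSR. On Bt.28461.2.S1_a_at low IMF replicate 4, of the bulls without an S, was lowest among the low IMF bulls at 25.13, and the next was at 56.23. On Bt.28461.1.S1_at, too dim to be tested, high IMF replicate 9, an S-titled bull, was lowest at 11.64 among the high IMF bulls and among the S-titled ones of them, and the next was at 22.65 in both.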

How the results depend on the processing

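Of the members' values, 612 kept direction and side of the threshold, 98 turned direction and 19 lost the call, all 19 on INSR Bt.28461.1.A1_at in the title series. Every turn was on an IMF or interaction value that was never called, and the cause was not tested. For IMF, AKT2 turned to -8e-04 with a pseudocount of 16 (Bt.6403.1.A1_at) and to 0.0289 and 0.0283 under quantile normalization and centring (Bt.5988.1.S1_at). Without the 4 arrays high in albumin IMF gave SLC2A4 0.117, INSR Bt.28461.1.A1_at -0.0638, AKT2 Bt.6403.1.A1_at -0.0523, PIK3R1 0.092 and PDK4 -0.0954, -0.167 and -0.0799. The interaction of AKT2 Bt.6403.1.A1_at turned to 0.0032, 0.0156, 0.0252 and 0.181 with the pseudocount, quantile normalization, centring and without these arrays, and that of PIK3R1 to 0.187 without them. Leaving out each bull gave IMF ranges of -0.176 to 0.0439 for SLC2A4, -0.0437 to 0.080 for INSR Bt.28461.1.A1_at, -0.103 to 0.0723 for AKT2 Bt.5988.1.S1_at and -0.0814 to 0.0768 for Bt.6403.1.A1_at, -0.210 to 0.155 for PIK3R1, and -0.162 to 0.404, -0.261 to 0.368 and -0.229 to 0.432 for PDK4. For the interaction these were -0.064 to 0.545 for INSR Bt.28461.2.S1_a_at, -0.159 to 0.150 for AKT2 Bt.6403.1.A1_at, -0.441 to 0.0158 for PIK3R1, and -0.418 to 0.354, -0.480 to 0.444 and -0.682 to 0.244 for PDK4. Within the other bulls, IMF calls numbered 0 to 1, the 1 without high IMF replicate 4 (adjusted p = 0.0196). Pairs of members past the threshold numbered 0, but 1 with centring and 1 with the means of IMF group and series subtracted (adjusted p = 0.0344), both AKT2 with PDK4, and 1 without the albumin arrays, SLC2A4 with PIK3R1. SLC2A4 with INSR turned to -0.0656 there. Quantile normalization and centring gave 5323 higher and 4762 lower, and 5439 higher and 4610 lower, calls between the series. The list genes named by rule, each in the comparison that chose it, kept direction and side in all 770 alternatives, and their other values were not rerun. No paired analysis was possible because the labels pair no animals. Dim probe sets and the number of arrays limit what could be called.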
